A study of Homo sapiens with 6 samples.

Results

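The genes described here are 10 human activators of the small GTPases Rac and Cdc42: ELMO1, ELMO2 and ELMO3, and the DOCK genes DOCK1, DOCK2, DOCK5, DOCK8, DOCK9, DOCK10 and DOCK11. They were chosen by their counts in these same libraries, in which ELMO1, DOCK2 and DOCK8 were low in the resistant cells. All 10 were found among the 61487 gene IDs of the count table. Of these 10, 8 passed the filter on low counts and stood among the 20891 genes tested. DOCK1 and DOCK10 did not pass it.

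The RNA came from K562, a line established from a patient with chronic myeloid leukaemia that carries the BCR-ABL1 fusion and has erythroid features. There were 3 libraries of azacitidine-resistant K562 cells and 3 of azacitidine-sensitive K562 cells. Every library name in both groups carries the tag NT, which the sample titles do not spell out. Azacitidine is a cytidine analogue that cells build into their nucleic acids, where it traps DNA methyltransferases. The resistant population was derived from the sensitive line by growing it in rising concentrations of the drug over months. The labels name no introduced gene or deletion for either group. Changes tied to resistance, to drug exposure and to the history of the derived population cannot be told apart.

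ELMO and DOCK proteins work together. DOCK proteins are guanine nucleotide exchange factors: through a domain unlike that of the larger Dbl family, they load Rac or Cdc42 with GTP, which lets the GTPase drive actin assembly, cell migration and the engulfment of dying cells. ELMO proteins are scaffolds without exchange activity of their own. They bind DOCK1, DOCK2 and DOCK5 (the DOCK-A group), relieve their autoinhibition and carry them to the membrane when the GTPase RHOG is active. DOCK8 belongs to the DOCK-C group, and DOCK9, DOCK10 and DOCK11 form the DOCK-D group, which acts mainly on Cdc42. DOCK2 and DOCK8 are largely confined to blood cells, and their inherited loss in people causes immunodeficiency.

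Total counts ranged from 33007642 to 37991708 in the resistant libraries and from 34924828 to 43006918 in the sensitive libraries. Levels are given as CPM, the usual count of a gene scaled to a common library total, here after TMM scaling. A count of 0 in a library allows a level of up to 0.0733 to 0.0902 CPM (3 counts, counting error only). The first principal component held 66.3% of the variance and separated the groups. The second set the libraries numbered 3 of both groups apart from the others. Mitochondrial genes took 19.0%, 17.6% and 8.99% of counts in resistant replicates 1, 2 and 3, and between 13.5% and 16.9% in the sensitive libraries. The labels name the samples biological replicates but do not state that each came from its own culture. The p-values therefore rest on the spread between these 6 libraries, which may be technical. Defining erythroid factors of K562 cells were present. GATA1 averaged 84.1 ± 3.68 CPM in resistant cells and 114 ± 14.5 CPM in sensitive cells, and KLF1 averaged 93.2 ± 18.7 CPM in resistant cells and 81.4 ± 2.93 CPM in sensitive cells (SD, n = 3 each).

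Among the members, ELMO1, DOCK2 and DOCK8 had lower levels in resistant cells in every library, ELMO2 had a higher level in every library, and the others overlapped between the groups except DOCK11. Since these values chose the members, they are a description and carry no test. In the fit across all genes (edgeR, Benjamini-Hochberg adjusted p below 0.05), 3 members were called lower, 1 was called higher and 4 were not called. Of all genes tested, 13.1% were called lower, 9.83% higher and 23.0% either way. The groups did not overlap for 5 of the 8 tested members and for 40.1% of all genes tested.

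**Figure D1:**
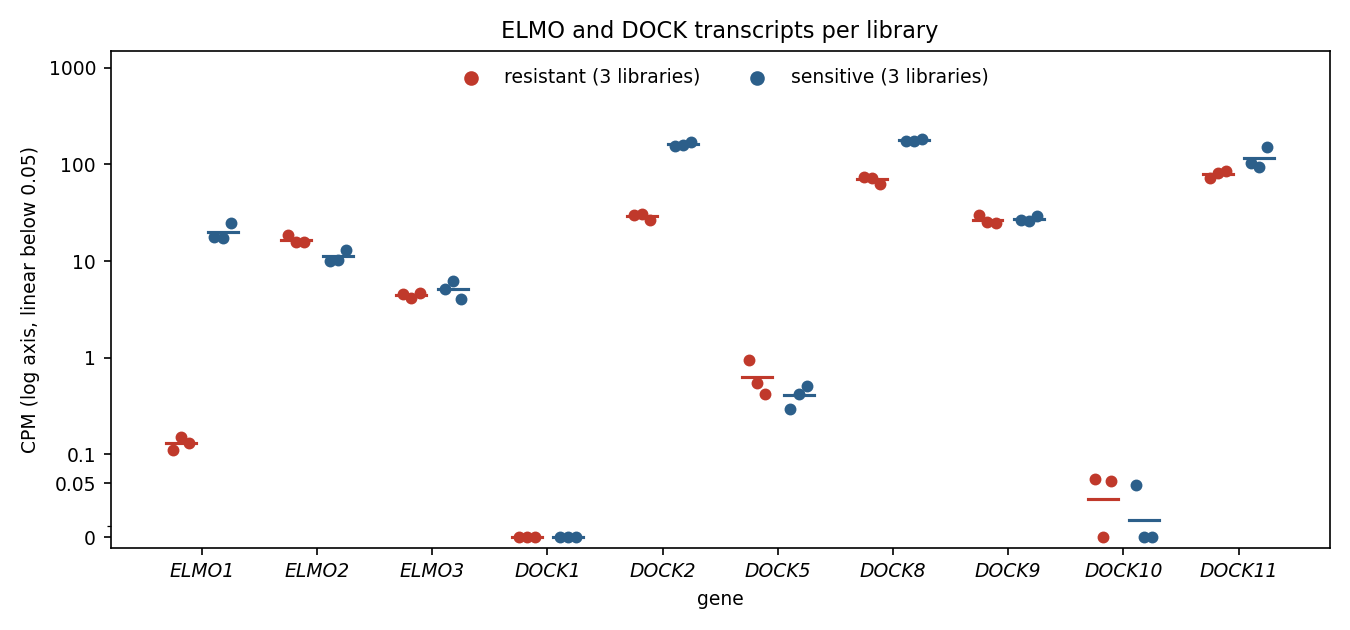
Level of each member in CPM in each library, on an axis that is logarithmic above 0.05 and linear below it, with 3 resistant libraries left of 3 sensitive libraries for every gene. Points are libraries and horizontal lines are group means. The resistant points lie far below the sensitive points for ELMO1 and below them for DOCK2 and DOCK8, and DOCK9 overlaps.

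ELMO1, the ELMO protein best known from haematopoietic and phagocytic cells, was almost undetected in resistant cells. Its gene lies on chromosome 7 (GRCh38, chr7:36854361-37449249, minus strand). It had 4, 6 and 5 counts in the resistant libraries, against 719, 578 and 920 counts in the sensitive libraries. As levels these were 0.111, 0.151 and 0.131 CPM in resistant cells and 17.6, 17.4 and 24.6 CPM in sensitive cells. Every resistant library was just above the level that a count of 0 allows, and every sensitive library was far above it. The means were 0.131 ± 0.0201 CPM in resistant cells and 19.9 ± 4.14 CPM in sensitive cells (SD, n = 3 each), 152-fold lower in resistant cells. The ratio of the summed counts was 151, with a 95% counting interval from 91.4 to 270.5. The fitted log2 fold change was -7.20 ± 0.31 (SE), -7.32 to -7.03 when any 1 library was left out and -7.03 without both libraries numbered 3. In bulk RNA, fewer cells that express a gene and less RNA per cell cannot be told apart.

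ELMO2, the broadly expressed ELMO protein, had the opposite direction. Its gene lies at chr20:46366049-46432985 (minus strand). The levels were 18.5, 15.6 and 15.6 CPM in resistant libraries and 10.0, 10.3 and 13.1 CPM in sensitive libraries. All 3 resistant libraries were above all 3 sensitive ones, though sensitive replicate 3 came within a few CPM of the lower resistant libraries. The mean was 16.6 ± 1.64 CPM in resistant cells and 11.1 ± 1.68 CPM in sensitive cells (SD, n = 3 each), 1.49-fold higher in resistant cells, with a log2 fold change of 0.57 ± 0.18 (SE). It was no longer called without resistant replicate 1 (0.49) or 2 (0.61), or without sensitive replicate 1 (0.48) or 2 (0.50), and the call was also lost under 3 other settings (0.55 to 0.57).

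ELMO3, the family member found mainly in epithelia, lies at chr16:67199111-67204029 (plus strand). It had 4.57, 4.15 and 4.67 CPM in resistant libraries and 5.11, 6.22 and 4.02 CPM in sensitive libraries. The groups overlapped, with the lowest value of all 6 in sensitive replicate 3. The log2 fold change was -0.20 ± 0.25 (SE).

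Expressed per kilobase of exonic length, so that the genes could be compared with each other, the ELMO genes made up different mixtures in the 2 groups. Exonic length covers all annotated exons of a gene, which can be more than its expressed transcripts hold. ELMO1 supplied 0.252%, 0.394% and 0.327% of the summed ELMO level in resistant libraries, against 34.4%, 31.3% and 42.1% in sensitive libraries. ELMO2 supplied 58.9 ± 2.34% in resistant cells and 29.3 ± 2.78% in sensitive cells, and ELMO3 supplied 40.8 ± 2.31% in resistant cells and 34.8 ± 8.34% in sensitive cells (SD, n = 3 each). The summed level was 4.26 ± 0.299 CPM per kb in resistant cells and 5.75 ± 0.391 CPM per kb in sensitive cells. Per kb, the sensitive cells thus held all 3 ELMO transcripts at like levels, and the resistant cells held ELMO2 and ELMO3. In CPM without length, the sensitive means were 19.9 for ELMO1, 11.1 for ELMO2 and 5.12 for ELMO3.

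**Figure D2:**
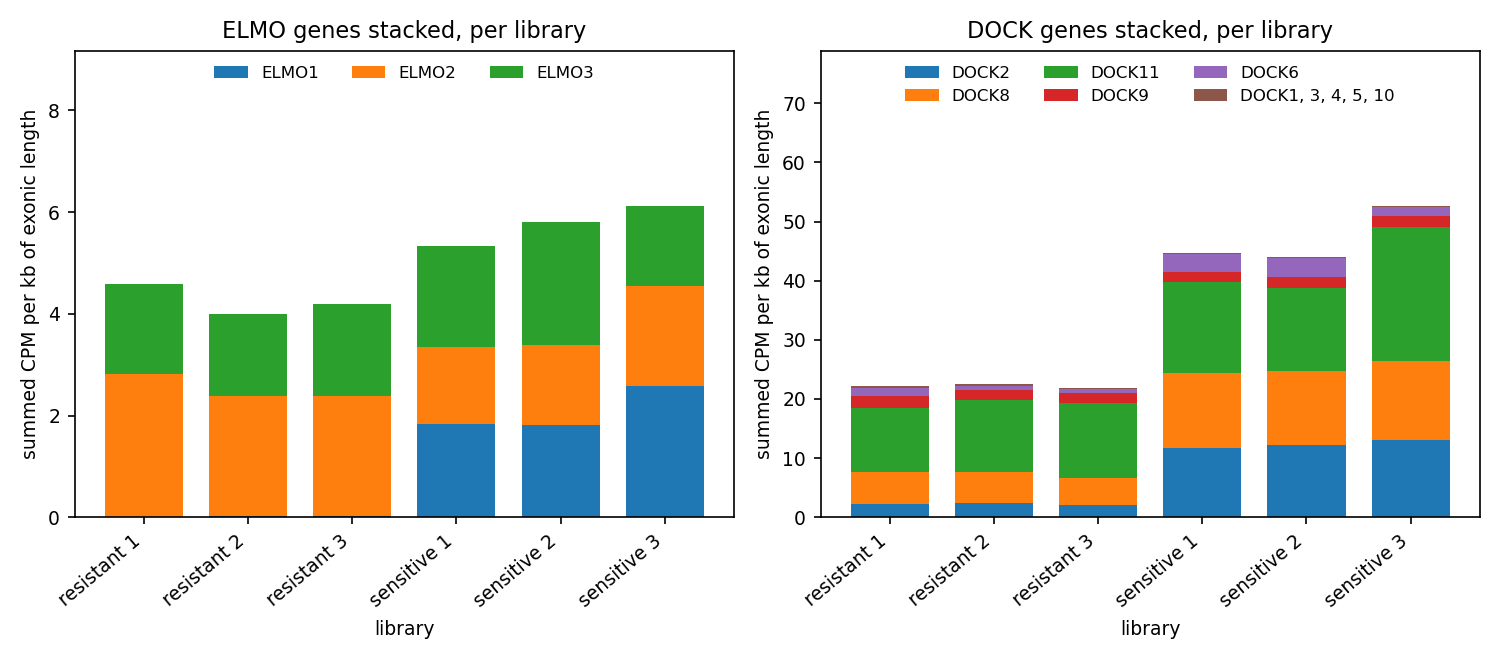
Summed level of the 3 ELMO genes and of 10 DOCK genes in CPM per kb of exonic length in each library, split by gene, with resistant libraries left of sensitive libraries. ELMO1 makes up 31.3% to 42.1% of the ELMO bar in sensitive libraries and under 0.4% in resistant libraries, and the DOCK2 part of the DOCK bar is smaller in resistant libraries.

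DOCK2, the DOCK-A factor of blood cells and the usual partner of ELMO1 in lymphocytes, was the second member with a large difference. Its gene lies at chr5:169637247-170083382 (plus strand). It had 30.0, 30.9 and 26.8 CPM in resistant libraries and 155, 161 and 172 CPM in sensitive libraries. The spread within each group was small beside the gap between them. The mean was 29.2 ± 2.14 CPM in resistant cells and 163 ± 8.44 CPM in sensitive cells (SD, n = 3 each), 5.56-fold lower in resistant cells. The log2 fold change was -2.47 ± 0.15 (SE), -2.53 to -2.44 with any 1 library left out and -2.39 without both libraries numbered 3. Unlike ELMO1, DOCK2 kept over 1000 counts in each resistant library (1083, 1229 and 1023).

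The other DOCK-A genes were at or near the limit of detection in both groups. DOCK1, the first known ELMO partner in most tissues, had 0 counts in all 6 libraries (chr10:126905409-127452517, plus strand). DOCK5, a Rac activator known from osteoclasts and mast cells in mice, had 34, 22 and 16 counts in resistant libraries and 12, 14 and 19 counts in sensitive libraries. These levels of 0.941, 0.553 and 0.420 CPM in resistant cells and 0.293, 0.421 and 0.509 CPM in sensitive cells overlapped. The log2 fold change of 0.64 ± 0.50 (SE) ranged from 0.26 to 0.85 with 1 library left out. DOCK2 therefore supplied nearly all of the DOCK-A level, 98.2% in resistant cells and 99.8% in sensitive cells. The DOCK-A sum was 2.25 ± 0.171 CPM per kb in resistant cells and 12.3 ± 0.645 CPM per kb in sensitive cells (SD, n = 3 each).

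DOCK8, a Cdc42 activator that lymphocytes and dendritic cells need to keep their shape while migrating, also had lower levels in resistant cells. Its gene lies at chr9:214854-465259 (plus strand). The levels were 74.5, 72.8 and 62.3 CPM in resistant libraries and 174, 174 and 184 CPM in sensitive libraries. The groups were well apart. The mean was 69.9 ± 6.60 CPM in resistant cells and 177 ± 5.90 CPM in sensitive cells (SD, n = 3 each), 2.54-fold lower in resistant cells. The log2 fold change was -1.34 ± 0.15 (SE), -1.39 to -1.29 with any 1 library left out and -1.25 without both libraries numbered 3.

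Of the DOCK-D genes, DOCK9 and DOCK11 were well expressed in both groups and DOCK10 was hardly detected. DOCK9, a Cdc42 activator also called zizimin, lies at chr13:98793429-99086625 (minus strand). It had 29.6, 25.6 and 24.9 CPM in resistant libraries and 26.6, 26.2 and 29.6 CPM in sensitive libraries, and the ranges covered each other. Its log2 fold change of -0.04 ± 0.15 (SE) had no settled sign, being 0.14 with library totals alone, 0.04 with upper quartile factors and 0.05 without both libraries numbered 3.

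DOCK11, a Cdc42 activator found mainly in blood cells, lies at chrX:118495898-118686163 (plus strand). It had 72.3, 81.4 and 85.5 CPM in resistant libraries and 103, 94.7 and 152 CPM in sensitive libraries. The resistant libraries were all below the sensitive ones, and sensitive replicate 3 stood above the other 2 of its group. The mean was 79.8 ± 6.74 CPM in resistant cells and 117 ± 31.1 CPM in sensitive cells (SD, n = 3 each), with a log2 fold change of -0.55 ± 0.20 (SE). DOCK11 was not called in the fit. It was called without both libraries numbered 3 (-0.38) and without the filter on low counts (-0.57), and its log2 fold change ranged from -0.71 to -0.32 with 1 library left out. DOCK10, known from B cells, had 2, 0 and 2 counts in resistant libraries and 2, 0 and 0 counts in sensitive libraries (chr2:224765090-225042445, minus strand), which allows no fold.

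**Figure D3:**
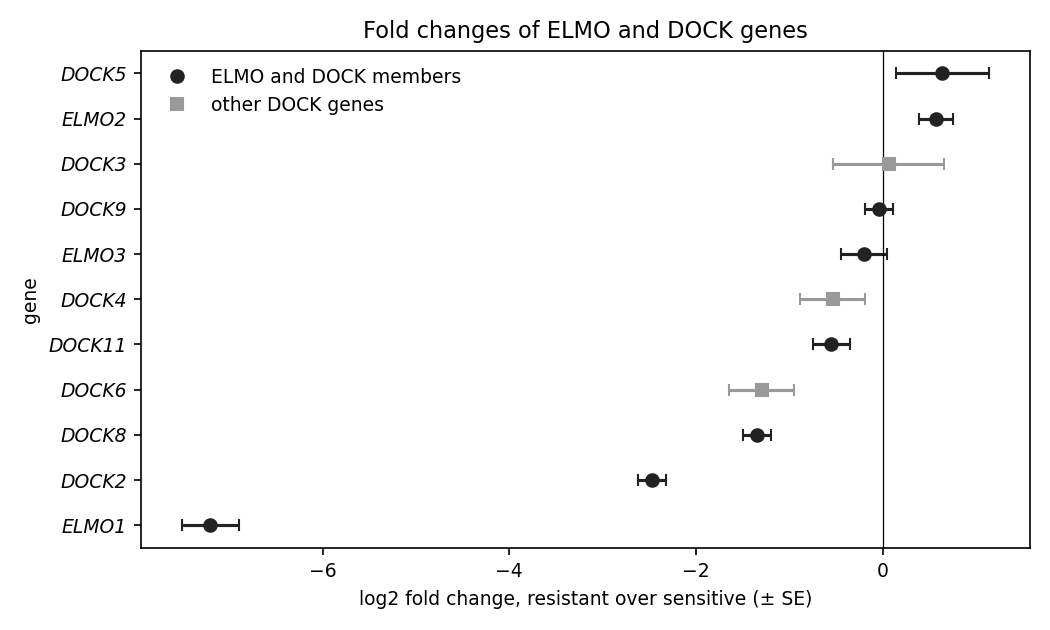
Log2 fold change, resistant over sensitive, of each tested member and of DOCK3, DOCK4 and DOCK6, with points for the fitted values and bars for 1 SE on each side (3 libraries per group). ELMO1 lies at -7.20, DOCK2 at -2.47 and DOCK8 at -1.34, and ELMO2 at 0.57 is the member furthest above 0 relative to its SE.

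Ordered by level per kb, DOCK11 stood first in resistant cells at 11.9 CPM per kb, followed by DOCK8 at 5.07, ELMO2 at 2.51, DOCK2 at 2.21, DOCK9 at 1.80 and ELMO3 at 1.73 CPM per kb. The ranges of DOCK9 and ELMO3 overlapped, and those of the other neighbours in this order did not. Far below came DOCK5 at 0.0400 and ELMO1 at 0.0137 CPM per kb. In sensitive cells, DOCK11 stood first at 17.4 CPM per kb, then DOCK8 at 12.9 and DOCK2 at 12.3 CPM per kb, which overlapped. ELMO1 at 2.08, ELMO3 at 1.99, DOCK9 at 1.85 and ELMO2 at 1.69 CPM per kb followed, each overlapping its neighbour, and DOCK5 was at 0.0255 CPM per kb. ELMO1 was thus the leading ELMO transcript by mean in sensitive cells and the lowest in resistant cells. The order of the DOCK genes depends on the exonic lengths. In CPM without length, DOCK8 at 177 and DOCK2 at 163 CPM stood above DOCK11 at 117 CPM in sensitive cells. In resistant cells, DOCK11 at 79.8 CPM stood above DOCK8 at 69.9 and DOCK2 at 29.2 CPM.

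DOCK3, DOCK4 and DOCK6 are DOCK genes outside the members. DOCK6, an activator of Rac and Cdc42, fell to 12.7 ± 5.06 CPM in resistant cells, against 31.2 ± 12.2 CPM in sensitive cells (SD, n = 3 each), a log2 fold change of -1.30 ± 0.34 (SE, adjusted p = 0.0232). Its libraries were uneven, with 18.6, 9.86 and 9.76 CPM in resistant and 36.8, 39.7 and 17.2 CPM in sensitive libraries, so the ranges overlapped. The call was lost without resistant replicate 2 (adjusted p = 0.0928), sensitive replicate 1 (0.0775) or sensitive replicate 2 (0.0769), and with library totals (0.0507). DOCK4, a Rac activator, had 0.869 ± 0.0778 CPM in resistant cells and 1.26 ± 0.103 CPM in sensitive cells (SD, n = 3 each; adjusted p = 0.309). DOCK3, best known from the brain, was under 1 CPM in every library, with a log2 fold change of 0.07 ± 0.59 (SE) that did not pass.

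Summed over these 3 and the 7 DOCK members, the level was 22.2 ± 0.280 CPM per kb in resistant cells and 47.1 ± 4.78 CPM per kb in sensitive cells (SD, n = 3 each), a ratio of 0.470. DOCK2 made up 9.99 ± 0.618% of that sum in resistant cells and 26.2 ± 1.47% in sensitive cells. DOCK8 made up 22.9 ± 1.97% in resistant cells and 27.4 ± 1.78% in sensitive cells. The share of DOCK11 was 53.6 ± 4.76% in resistant cells and 36.5 ± 5.83% in sensitive cells, although its own mean level was lower in resistant cells. The share of DOCK9 was 8.14 ± 0.774% in resistant cells and 3.95 ± 0.127% in sensitive cells. These shares depend on the exonic lengths, which were 6.72 kb for DOCK11, 13.2 kb for DOCK2 and 13.8 kb for DOCK8.

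The start regions of the 4 called members are shown because these calls went in both directions, though that of ELMO2 was lost under several settings. Each window covers 250 bases before and 50 after a RefSeq transcript start (GRCh38.p14), and where RefSeq lists several starts the window with the most CpG pairs is shown. Capitals mark GGAAGT, the core letters read by ETS family factors, and both strands were searched. The windows are chr7:37448815-37449114 (minus strand) for ELMO1, chr5:169637025-169637324 (plus) for DOCK2, chr9:214615-214914 (plus) for DOCK8 and chr20:46406566-46406865 (minus) for ELMO2.
ELMO1: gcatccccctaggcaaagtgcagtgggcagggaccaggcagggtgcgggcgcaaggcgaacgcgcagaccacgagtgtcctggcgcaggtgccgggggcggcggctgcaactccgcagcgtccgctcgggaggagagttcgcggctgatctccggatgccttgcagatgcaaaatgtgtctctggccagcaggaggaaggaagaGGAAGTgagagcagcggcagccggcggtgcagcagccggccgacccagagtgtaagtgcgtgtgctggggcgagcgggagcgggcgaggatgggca
DOCK2: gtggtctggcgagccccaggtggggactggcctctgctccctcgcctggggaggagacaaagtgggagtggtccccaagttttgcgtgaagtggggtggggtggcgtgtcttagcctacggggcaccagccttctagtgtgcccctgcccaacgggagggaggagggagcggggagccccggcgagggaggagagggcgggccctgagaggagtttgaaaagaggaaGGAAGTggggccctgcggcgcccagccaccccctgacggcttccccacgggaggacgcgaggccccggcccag
DOCK8: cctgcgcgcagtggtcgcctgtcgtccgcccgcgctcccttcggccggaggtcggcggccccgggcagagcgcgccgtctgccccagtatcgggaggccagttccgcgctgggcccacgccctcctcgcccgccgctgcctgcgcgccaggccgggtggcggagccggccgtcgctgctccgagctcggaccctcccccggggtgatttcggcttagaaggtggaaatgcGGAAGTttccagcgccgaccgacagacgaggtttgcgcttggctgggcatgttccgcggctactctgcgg
ELMO2: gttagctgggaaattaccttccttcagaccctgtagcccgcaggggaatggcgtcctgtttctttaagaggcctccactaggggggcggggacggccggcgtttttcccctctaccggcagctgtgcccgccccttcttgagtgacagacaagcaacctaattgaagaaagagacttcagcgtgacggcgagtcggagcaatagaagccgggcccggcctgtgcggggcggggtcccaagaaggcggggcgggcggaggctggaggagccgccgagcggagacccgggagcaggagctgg

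The 3 windows of the genes with lower transcript levels each held 1 GGAAGT match on the strand of the gene, starting 46 bases before the start in ELMO1, 23 before it in DOCK2 and 20 before it in DOCK8. The ELMO2 window held 0 matches. The match did not follow the calls over all members. DOCK11, which was not called, had 1 match in its only window. For the untested DOCK10, the window richest in CpG held 0 matches, and its windows with 5 and 3 CpG pairs held 1 each. The other DOCK8 window held 2 matches, and the ELMO1 window with 11 CpG pairs held 1. The windows of DOCK1, DOCK9 and ELMO3 held 0 matches, as did the ELMO1 windows with 7 and 3 CpG pairs. The motif was chosen after the sequences were seen. Over all 16 windows that RefSeq gives for 9 of the members, 8 held GGAAGT, as did 22.8% of 35116 human promoters of the same length. AGATAA, read by GATA factors, was in 2 of the 16 windows and in 10.3% of all promoters, and TGTGGT, read by RUNX factors, was in 1 of 16 and in 13.1% of all promoters. Several of these windows belong to the same gene, and a match is not a bound site. The windows shown held 27 CpG pairs in ELMO1, 17 in DOCK2, 42 in DOCK8 and 23 in ELMO2, against a median of 14 over all promoters. That median is over windows not picked for CpG, whereas those of ELMO1 and DOCK8 were picked as the richest of several. The other ELMO1 windows held 7, 11 and 3 CpG pairs, and the other DOCK8 window held 7. Methylation was not analysed here.

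Antisense transcripts touch some members. ELMO1-AS1, transcribed from the opposite strand within ELMO1, had 0 counts in the 3 resistant libraries and 7, 2 and 6 counts in the sensitive libraries, at least 5.11-fold lower in resistant cells (against 3 counts over the group). It was too low to be tested. DOCK8-AS1 had a log2 fold change of -0.69 (adjusted p = 0.223) and DOCK8-AS2 one of -0.19 (adjusted p = 0.808). The strand setting of the counting is not given in the sources used here, so reads of a gene and its antisense partner cannot be told apart in these counts.

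Genes beside the members were counted to show whether the differences were shared along the chromosome. This rule, all tested genes within 500 kb, was chosen after the members' values were seen, as were the genes named from it. Of 103 such genes, 8 rose and 9 fell, or 7.77% and 8.74% of them, against 9.83% higher and 13.1% lower among all genes tested. The counts of higher genes were 5, 3, 3 and 4 without resistant replicate 1, resistant replicate 2, sensitive replicate 1 and sensitive replicate 2, and those of lower genes were 5 without resistant replicate 2 or sensitive replicate 1. Both tested neighbours of ELMO1 lay far from it, and neither was called: ANLN, an actin-binding protein of dividing cells, had a log2 fold change of 0.14 (adjusted p = 0.556) and MATCAP2 one of 0.48 (adjusted p = 0.173). Near DOCK2, 3 of 5 genes fell. LCP2, which encodes the adaptor SLP-76 of T cell and platelet signalling and lies 163 kb away, fell to 1.51 ± 0.505 CPM in resistant cells, against 38.9 ± 3.64 CPM in sensitive cells (SD, n = 3 each), a log2 fold change of -4.69 ± 0.25 (SE, adjusted p = 2.52e-06). The non-coding LINC01366 (-5.38, adjusted p = 2.64e-06) and C5orf58 (-4.31, adjusted p = 0.00273) fell as well. SPDL1, 32.5 kb from DOCK2, was not called (-0.14, adjusted p = 0.775), nor was INSYN2B, which lies within DOCK2 on the other strand (-0.49, adjusted p = 0.562).

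Near DOCK8, 4 of 9 genes fell. KANK1, an actin regulator 5.03 kb from DOCK8, had 2.72 ± 0.457 CPM in resistant cells and 7.08 ± 0.877 CPM in sensitive cells (SD, n = 3 each), a log2 fold change of -1.38 (adjusted p = 0.00306). LINC01388 fell by 1.78 on the log2 scale (adjusted p = 0.00545), as did an unnamed non-coding gene by 1.92 (adjusted p = 0.0158, up to 0.0796 with 1 library left out). ZNG1A, which has near-identical copies, fell by 0.72 (adjusted p = 0.0302, up to 0.147 with 1 library left out). Near ELMO2, the median log2 fold change of the 20 tested genes was 0.71, beside 0.57 for ELMO2 itself and 0.03 over all genes. Of these 20, 6 were called higher, all in a stretch 394 to 487 kb away. The largest of these changes were in PLTP, a phospholipid transfer protein (log2 fold change 2.38, adjusted p = 9.85e-06), SPATA25 (2.12, adjusted p = 0.00669) and CTSA, a lysosomal carboxypeptidase (1.44, adjusted p = 0.000282). The calls of ZNF335, PCIF1 and ZSWIM3 were lost with 1 library left out (adjusted p up to 0.107, 0.127 and 0.0920). Near the other members, 2 of 44 genes rose beside ELMO3, 1 of 6 fell beside DOCK11, 1 of 13 fell beside DOCK9 and 0 of 4 were called beside DOCK5.

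**Figure D4:**
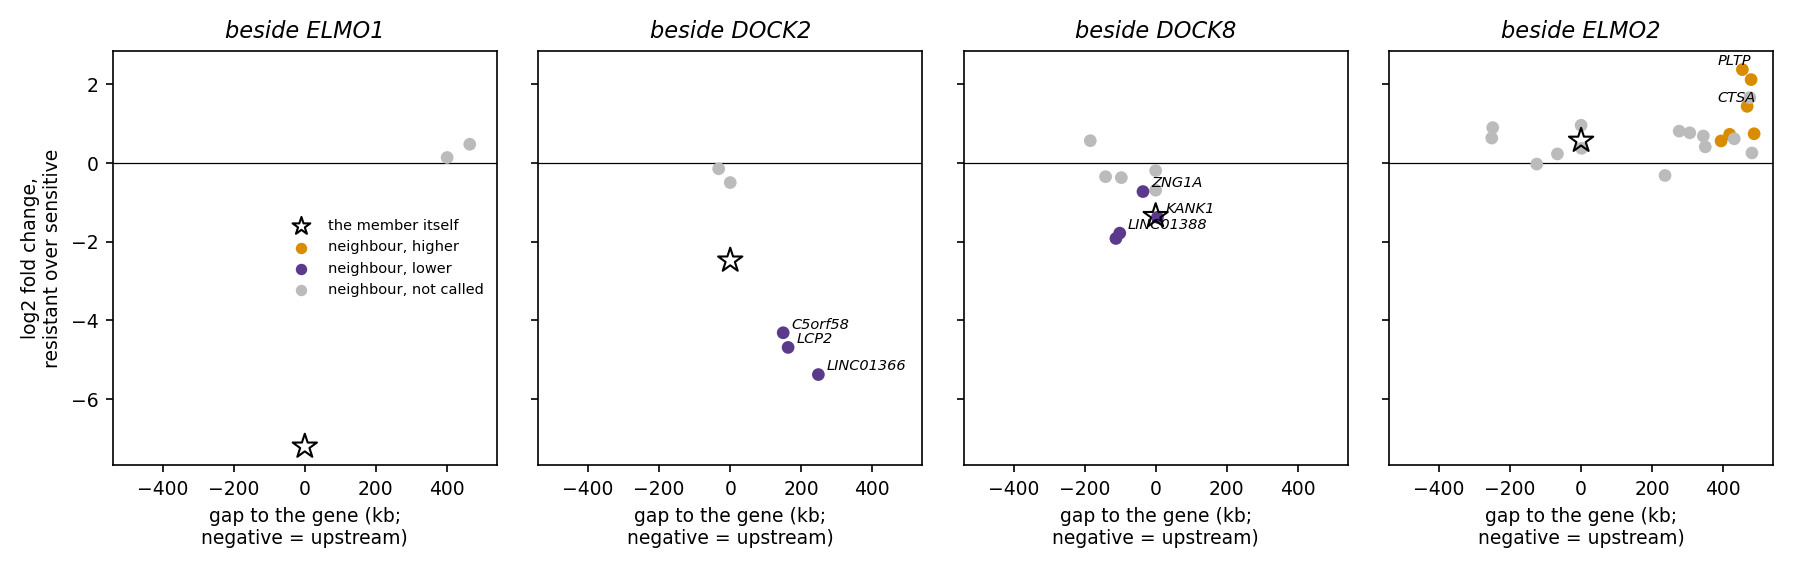
Log2 fold change, resistant over sensitive, of the tested genes within 500 kb of ELMO1, DOCK2, DOCK8 and ELMO2, plotted against the gap to the member in kb (negative is upstream), with a star for the member. Genes near DOCK2 reach -5.38, those near DOCK8 reach -1.92, and the 2 genes near ELMO1 lie at 0.14 and 0.48.

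The GTPases that the members act on differed between relatives. RAC1, the ubiquitous Rac, had 142 ± 7.65 CPM in resistant cells and 116 ± 14.5 CPM in sensitive cells (SD, n = 3 each), a log2 fold change of 0.29 ± 0.15 (SE, adjusted p = 0.213). It passed with library totals (adjusted p = 0.0339) and without both libraries numbered 3 (0.00875). RAC2, the Rac of blood cells, fell to 31.6, 27.1 and 16.6 CPM in resistant libraries, against 58.0, 59.3 and 51.0 CPM in sensitive libraries, a log2 fold change of -1.16 ± 0.22 (SE, adjusted p = 0.00496). RAC3 also fell (-0.65, adjusted p = 0.0161), but the call was lost without resistant replicate 1 (0.0548), sensitive replicate 1 (0.0769) or sensitive replicate 2 (0.0576), and with library totals (0.0695). CDC42, the substrate of DOCK8 and the DOCK-D group, had 263 ± 87.9 CPM in resistant cells and 326 ± 84.3 CPM in sensitive cells (SD, n = 3 each; adjusted p = 0.438), and passed without both libraries numbered 3 (log2 fold change -0.40, adjusted p = 0.0191). RHOG, which binds ELMO, had 29.1 ± 10.7 CPM in resistant cells and 43.9 ± 4.14 CPM in sensitive cells (SD, n = 3 each; adjusted p = 0.127), and passed without the filter on low counts (0.0150).

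Relatives of these GTPases and their inhibitors moved in both directions. ARHGDIB, which in blood cells holds such GTPases inactive in the cytosol, fell to 13.2 ± 2.40 CPM in resistant cells, against 153 ± 57.3 CPM in sensitive cells (log2 fold change -3.54 ± 0.28 SE, adjusted p = 1.95e-05). RHOB, an endosomal GTPase, fell to 9.36 ± 0.619 CPM in resistant cells, against 49.3 ± 6.25 CPM in sensitive cells (adjusted p = 9.35e-06). RHOH, a GTPase-deficient family member of lymphoid cells, fell by 2.09 on the log2 scale (adjusted p = 0.00411) and RHOBTB1 by 1.06 (adjusted p = 0.00406). RHOU, an atypical relative of CDC42, rose to 5.63 ± 1.18 CPM in resistant cells, against 0.316 ± 0.184 CPM in sensitive cells (SD, n = 3 each), a log2 fold change of 4.15 ± 0.46 (SE, adjusted p = 0.000206). ARHGDIA, the broadly expressed relative of ARHGDIB, rose to 43.8 ± 10.9 CPM in resistant cells, against 24.0 ± 0.650 CPM in sensitive cells (SD, n = 3 each; log2 fold change 0.87, adjusted p = 0.0101, and 0.0518 without sensitive replicate 1). RND2, a GTPase-deficient relative, rose by 1.12 on the log2 scale (adjusted p = 0.00959), and its call was lost without resistant replicate 2 (0.0669) or sensitive replicate 1 (0.0545).

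Upstream, 24 of 29 receptors and adaptors that feed into ELMO and DOCK were tested. Of these, 1 rose (STAB1, a receptor for phosphatidylserine, adjusted p = 0.0435) and 6 fell, 29.2% of them called against 23.0% of all genes, with a median log2 fold change of -0.13 beside 0.03 for all genes. The count of higher genes was 0 without resistant replicate 2, sensitive replicate 1 or sensitive replicate 3, and 2 without resistant replicate 3. The call of STAB1 was also lost without resistant replicate 1 (adjusted p = 0.0917) and with length offsets (0.0505). AXL, a receptor for dying cells through GAS6, fell to 2.67 ± 0.212 CPM in resistant cells, against 17.7 ± 2.44 CPM in sensitive cells (adjusted p = 1.43e-05). The integrin gene ITGB5 fell to 30.0 ± 1.19 CPM in resistant cells, against 92.5 ± 11.6 CPM in sensitive cells (adjusted p = 6.34e-05). The adaptor gene NCK2 fell by 1.43 on the log2 scale (adjusted p = 0.000952). WIPF1, whose product binds WASP and links it to DOCK8, fell to 9.63 ± 4.61 CPM in resistant cells, against 33.8 ± 2.19 CPM in sensitive cells (adjusted p = 0.00369). ADGRB3, whose product binds ELMO1, fell by 1.45 (adjusted p = 0.0115). ANKRD28, which binds DOCK1, fell by 1.05 (adjusted p = 0.0188), and its call was lost without resistant replicate 2 (0.0732). The CRK adaptors, which recruit DOCK1 to p130Cas (the product of BCAR1), were not called. CRK had 88.9 ± 17.7 CPM in resistant cells and 61.3 ± 6.22 CPM in sensitive cells (log2 fold change 0.54, adjusted p = 0.0529), and passed under 9 alternatives, DESeq2 among them (0.0390). CRKL, a substrate of BCR-ABL1, had 936 ± 95.7 CPM in resistant cells and 742 ± 61.5 CPM in sensitive cells (adjusted p = 0.234, 0.0467 with library totals), and BCAR1 had 14.5 ± 3.96 CPM in resistant cells and 16.8 ± 2.52 CPM in sensitive cells (SD, n = 3 each; adjusted p = 0.560).

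The Dbl-type exchange factors, which activate the same GTPases through another domain, moved in both directions. Of 27 tested among 31, 6 rose and 6 fell, 44.4% called, with a median log2 fold change of 0.12. Without resistant replicate 2, 3 rose, and without resistant replicate 3, 11 rose. PREX1, a Rac activator driven by phosphoinositides and G protein subunits, rose to 20.7 ± 1.46 CPM in resistant cells, against 0.844 ± 0.602 CPM in sensitive cells (SD, n = 3 each), a log2 fold change of 4.63 ± 0.43 (SE, adjusted p = 5.93e-05). FGD6 rose by 1.14 on the log2 scale (adjusted p = 0.000893). VAV1, the Rac activator of blood cells, fell to 10.9 ± 1.32 CPM in resistant cells, against 46.0 ± 4.91 CPM in sensitive cells (adjusted p = 2.44e-05). ARHGEF6, which encodes the PAK-binding factor alpha-PIX, fell to 9.73 ± 1.16 CPM in resistant cells, against 81.8 ± 18.8 CPM in sensitive cells (adjusted p = 7.85e-06). DEF6, an exchange factor of T cells, fell to 22.9 ± 3.03 CPM in resistant cells, against 79.9 ± 3.89 CPM in sensitive cells (adjusted p = 3.53e-05), and FGD4, a CDC42 activator, fell by 2.33 on the log2 scale (adjusted p = 6.38e-05).

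**Figure D5:**
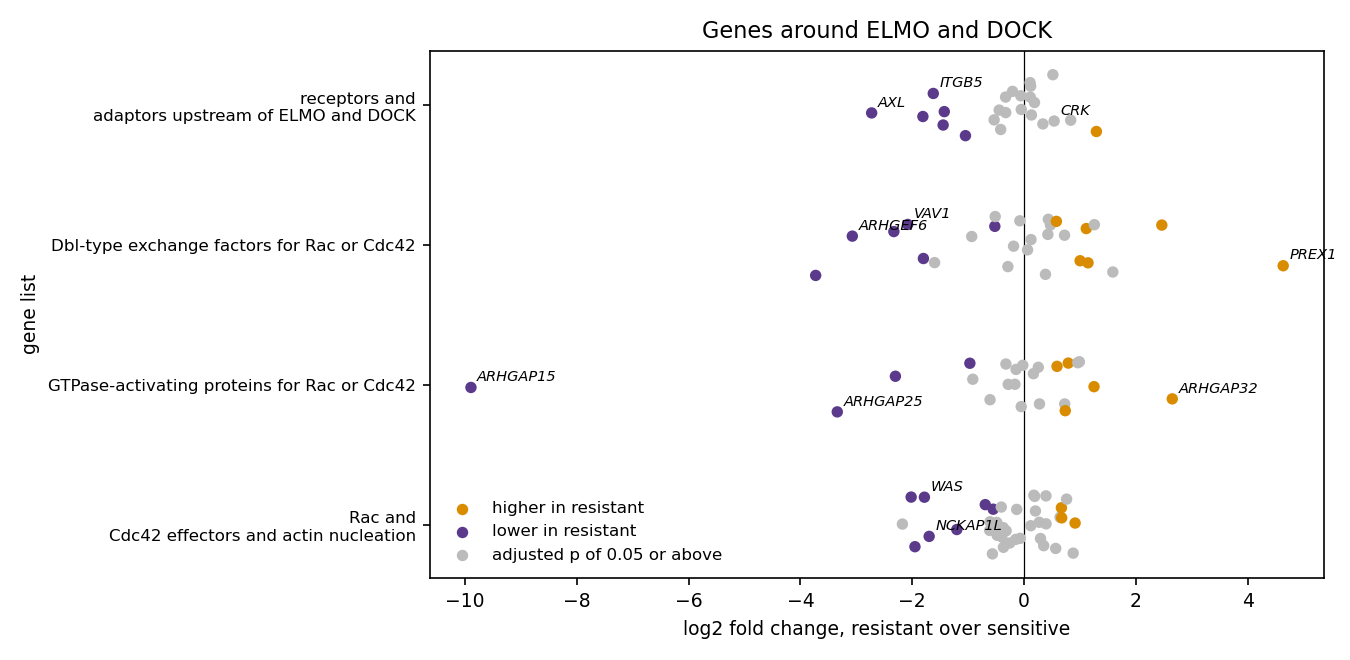
Log2 fold change, resistant over sensitive, of the tested genes in 4 lists around the members, with 1 point per gene and genes called higher, called lower or not called in different colours. The GTPase-activating protein list holds the lowest point, ARHGAP15 at -9.89, and the Dbl-type list the highest, PREX1 at 4.63.

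Among the GTPase-activating proteins, which switch Rac and CDC42 off, 5 of 23 tested (25 listed) rose and 4 fell, 39.1% called, with a median log2 fold change of -0.02. The count of higher genes was 3 without resistant replicate 2 or sensitive replicate 2, and 2 without sensitive replicate 1. ARHGAP15, a Rac inhibitor, had 2, 4 and 2 counts in resistant libraries and 1853, 1471 and 4461 counts in sensitive libraries. It was almost undetected in every resistant library, as ELMO1 was. The ratio of its counts was 995 with a counting interval from 505 to 2305, and the log2 fold change was -9.89 ± 0.60 (SE, adjusted p = 4.55e-06). ARHGAP25, a Rac inhibitor of phagocytes, fell to 2.29 ± 0.510 CPM in resistant cells, against 23.2 ± 2.04 CPM in sensitive cells (adjusted p = 8.29e-06). ARHGAP9 fell by 2.30 on the log2 scale (adjusted p = 7.09e-05) and ABR by 0.97 (adjusted p = 0.00702). ARHGAP32 rose by 2.65 (adjusted p = 0.00515) and ARHGAP22 by 0.74 (adjusted p = 0.00753).

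Downstream, 38 of 43 effectors and actin nucleation genes were tested. Of these, 3 rose and 7 fell, 26.3% called, with a median log2 fold change of -0.20. The count of higher genes was 1 without resistant replicate 1, resistant replicate 2, sensitive replicate 1 or sensitive replicate 2, and 5 without resistant replicate 3, where 11 fell. NCKAP1L, the subunit of the WAVE complex in blood cells that takes the place of NCKAP1, fell to 62.6 ± 5.17 CPM in resistant cells, against 203 ± 50.3 CPM in sensitive cells (adjusted p = 0.000270). WAS, which encodes the CDC42 effector WASP, fell to 3.33 ± 1.40 CPM in resistant cells, against 11.4 ± 1.29 CPM in sensitive cells (adjusted p = 0.00220). CYBB and NCF4, parts of the phagocyte NADPH oxidase that Rac switches on, fell by 2.02 (adjusted p = 0.00191) and 1.95 (adjusted p = 0.00570) on the log2 scale, and IQGAP2, a scaffold that binds Rac and CDC42, fell by 1.20 (adjusted p = 0.00192). PARD6B, a polarity protein that binds CDC42, rose by 0.91 (adjusted p = 0.0134).

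Genes whose pattern over the 6 libraries was most like that of a member were found by the root mean square difference of mean-centred log2 CPM, over 16900 genes. For ELMO1 these included NR5A2 (0.190) and MPV17L (0.290), both with 0 counts in resistant cells, against 5.48 CPM (NR5A2) and 4.32 CPM (MPV17L) in sensitive cells. For DOCK8, the member with the highest mean CPM over all 6 libraries (not per length; DOCK11 was higher in resistant cells), they were TRIM7 (0.0541), VCL (0.0599) and SPATA20 (0.0669). For DOCK5, the member with the highest fold change, they were DDX11L9 (0.108), RPL36AP15 (0.112) and TYMS (0.126), the first of which is a pseudogene with near-identical copies.

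Markers of other cell types were summed beside the members. Of 8 lymphocyte markers, 7 had counts, and their sum was 10.0 to 11.8 CPM in resistant libraries and 28.3 to 121 CPM in sensitive libraries. This sum followed CD3D, which had 1.91, 2.36 and 1.57 CPM in resistant libraries and 28.2, 18.5 and 95.2 CPM in sensitive libraries. Over the same sensitive libraries DOCK2 had 155, 161 and 172 CPM, and DOCK8 had 174, 174 and 184 CPM. ELMO1 had 17.6, 17.4 and 24.6 CPM there, and DOCK11 had 103, 94.7 and 152 CPM. Sensitive replicate 3 was the highest of its group for CD3D and for each of these members, and the lowest for ELMO3 (5.11, 6.22 and 4.02 CPM). The B cell marker MS4A1 was at 0 in all 6 libraries, and CD2 stayed at or below 0.0601 CPM. Macrophage markers summed to at most 0.101 CPM in resistant libraries and 0.161 CPM in sensitive libraries, with C1QB, C1QC and MARCO at 0. All 6 fibroblast markers had counts, and summed to 4.80 to 7.97 CPM in resistant libraries and 1.25 to 3.46 CPM in sensitive libraries. They did not move together. The resistant sum was mostly COL1A2, at a mean of 5.51 CPM against 0.324 CPM in sensitive cells (adjusted p = 0.00104). COL3A1 fell to 0.0702 CPM, against 0.811 CPM (adjusted p = 0.0115, up to 0.0584 with 1 library left out). COL1A1, LUM and PDGFRB had lower means in resistant cells and DCN a higher one, none of them called. Of 5 epithelial markers, 4 had counts (KRT14 was at 0), and the sum was 110 to 137 CPM in resistant libraries and 156 to 194 CPM in sensitive libraries. That sum was mostly EPCAM, which was not called (log2 fold change -0.19, adjusted p = 0.436). KRT19, a keratin, fell to 11.3 ± 1.45 CPM in resistant cells, against 52.7 ± 9.39 CPM in sensitive cells (SD, n = 3 each; adjusted p = 3.43e-05). CDH1, which encodes E-cadherin, rose, with 324, 341 and 118 counts in resistant libraries and 1, 2 and 2 counts in sensitive libraries (log2 fold change 7.15 ± 0.61 SE, adjusted p = 3.53e-05). The part of the lymphocyte, fibroblast and epithelial markers in the members' values was not tested.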

How the data were processed

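RNA was measured in 3 azacitidine-resistant and 3 azacitidine-sensitive K562 libraries. Per the labels' protocols, they were made from total RNA with a stranded kit that removes ribosomal RNA. The submitters' processing notes list GRCh38 and the tools HISAT2 2.2.1, Trimmomatic 0.39, Subread 2.0.3 and featureCounts. Annotation release and strand setting: not given in the sources used here. The deposited values are raw counts per gene. Positions and exonic lengths are from GENCODE 29 and may differ from the authors' release.

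The counts were filtered with filterByExpr, scaled with TMM factors and tested with edgeR 4.0.16 (quasi-likelihood, two-sided, Benjamini-Hochberg over 20891 genes) in R 4.3.3. The SE is the log2 fold change divided by the square root of F. The 95% intervals and the floor of 3 counts cover counting error only. Members, gene lists and the naming rule were chosen with earlier results of these data known. The rule named all members, the other DOCK genes, 8 pathway genes, up to 6 called genes per list by adjusted p, and the 3 genes most like the members with the highest and lowest fold change and the highest level. Some genes and 1 list under this rule are not reported here. STAB1, ARHGDIA, RND2, the marker genes and the neighbours fall outside it. Alternatives covered scaling, filters, a replicate block, DESeq2 1.42.0, limma-voom (limma 3.58.1), length offsets, stricter thresholds and libraries left out. The steps were tested on simulated counts.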

Additional observations from a re-analysis of the deposited data

How the results depend on the processing

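ELMO1, DOCK2 and DOCK8 kept their direction and call under every alternative fit run. The members were chosen with that difference known in these same libraries, so this describes the fits and is no test of it. Scaling by library totals put the median over all genes at a log2 fold change of 0.20 (0.03 with TMM), and 58.9% of calls were then higher (42.8% with TMM, 50.05% with upper quartile factors). Under it DOCK2 was at -2.30, DOCK8 at -1.17 and DOCK9 at 0.14. With length offsets they were at -2.61, -1.49 and -0.20, and with the replicate block and length offsets at -2.61, -1.49 and -0.19. Leaving out 1 library gave ELMO1 -7.32 to -7.03, ELMO2 0.48 to 0.69, ELMO3 -0.35 to -0.06, DOCK2 -2.53 to -2.44, DOCK5 0.26 to 0.85, DOCK8 -1.39 to -1.29, DOCK9 -0.12 to 0.01 and DOCK11 -0.71 to -0.32.

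Of all genes, 2054 were higher and 2741 lower. Leaving out 1 library gave 1051 (without resistant replicate 2) to 3327 higher (without resistant replicate 3), with 1362, 1062 and 1179 without resistant replicate 1, sensitive replicate 1 and sensitive replicate 2, and 1677 (without resistant replicate 2) to 3718 lower. Without both libraries numbered 3, 4645 were higher and 5021 lower. At an adjusted p below 0.01, 938 were higher and 1586 lower, and 1277 were higher by a log2 fold change of at least 1.

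Leaving out 1 library gave 3 to 12 higher and 5 to 10 lower neighbours, 0 to 2 higher and 5 to 7 lower receptors and adaptors, 3 to 11 higher and 4 to 6 lower Dbl-type factors, 2 to 5 higher and 4 to 6 lower GTPase-activating proteins, and 1 to 5 higher and 5 to 11 lower effectors. Without both libraries numbered 3, the neighbours gave 20 higher and 23 lower, the receptors and adaptors 5 higher, the Dbl-type factors 11, the GTPase-activating proteins 8 and the effectors 8 higher and 15 lower. Higher genes beside the members numbered 14 with library totals, 13 without the filter and 13 with DESeq2. Higher receptors and adaptors numbered 4 with library totals, 3 with DESeq2 and 2 each with upper quartile factors, without the filter and with at least 50 counts in 3 libraries. With library totals 10 Dbl-type factors were higher, and without the filter 5 effectors were. At an adjusted p below 0.01, 3 neighbours were higher and 5 lower, and 0 receptors and adaptors, 3 Dbl-type factors, 2 GTPase-activating proteins and 0 effectors were higher. Requiring a log2 fold change of at least 1 left 4 neighbours, 2 GTPase-activating proteins and 0 effectors higher. The cause of these changes was not tested.

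The replicate numbers did not pair the libraries: same-numbered libraries deviated together with correlations of 0.202, 0.0850 and 0.299 over 20891 genes, and resistant replicate 1 followed sensitive replicate 2 more closely (0.230). With the replicate block, 2859 genes were higher and 3582 lower, 14 neighbours and 3 receptors and adaptors were higher, 6 effectors were higher and 13 lower, and DOCK11 was called (-0.52). With the block and length offsets, 13 neighbours, 3 receptors and adaptors and 5 effectors were higher and 12 effectors lower, and DOCK11 was called (-0.54). Depth limited DOCK1, DOCK10, DOCK5 and the resistant level of ELMO1, which rests on 15 counts.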
